A study of Mus musculus with 4 samples.

Results

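AP-1 is a dimer of a FOS protein with a JUN protein, or of JUN proteins with each other, that binds DNA through a basic leucine zipper. Many genes of both families, together with Egr1 and Myc, are immediate early genes: serum, growth factors and stress induce them through MAP kinases within minutes and without new protein synthesis. In cultured astrocytes these genes respond to serum and injury, and AP-1 is counted among the factors that drive the reactive state. The 10 members followed here were Fos, Fosb, Fosl1, Fosl2, Jun, Junb, Jund, Atf3, Egr1 and Myc, taken from the 55487 genes of the deposited tables by matching gene identifiers to GENCODE symbols. All 10 were found, and all 10 were among the 15596 genes with a mean of at least 1 CPM (counts divided by library size, after TMM scaling for library composition) over the 4 libraries.

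RNA sequencing was done on primary mouse astrocyte cultures, labelled as glial cells, in 4 groups of 1 library each. The groups were OASIS-deficient cells with doxorubicin, OASIS wild-type cells with doxorubicin, OASIS-deficient cells without treatment and OASIS wild-type cells without treatment. OASIS is the product of Creb3l1, a membrane-bound transcription factor of the endoplasmic reticulum, and doxorubicin is a topoisomerase II poison that breaks DNA. Cultures 5 days past confluence were exposed to 1 µg/ml of the drug for 1 h and then stayed in fresh medium for 24 h, and all cells grew in medium with 10% serum. The labels do not give the deficient allele, the mouse strain, the age of the donor animals or whether animals were pooled. With 1 library in each group, no ratio between libraries has a replicate check. The p-values from fits over the 4 libraries rest largely on a spread borrowed from all genes, and do not measure the spread between replicate cultures.

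Total counts were 17481188 to 22559613, and the floor of detection, taken as 3 counts, was 0.131 to 0.174 CPM. Creb3l1 had 235 and 636 counts in deficient and wild-type cells with doxorubicin, and 260 and 966 counts in deficient and wild-type cells without it, so its level in deficient cells was 42.8% and 31.1% of wild type. Xist had 139 and 111 CPM in the deficient and wild-type libraries with doxorubicin, against 0 and 0.0502 CPM in the deficient and wild-type libraries without it, while 4 Y-linked genes had 0 counts in both libraries with doxorubicin and were detected in both without it. Doxorubicin and the sex of the culture therefore cannot be told apart. Summed astrocyte markers were 9804 and 3801 CPM in deficient and wild-type cells with doxorubicin, and 11134 and 3925 CPM in deficient and wild-type cells without it, and none of the 10 markers was at 0 in any library. Gfap held a large part of these sums, and without it the other 9 summed to 4637 and 2681 CPM with doxorubicin and to 4546 and 2784 CPM without it. Gja1 had 343 and 289 CPM in deficient and wild-type cells with doxorubicin, and 316 and 348 CPM without it. Microglial markers, from a cell type common in such cultures, summed to 857 and 979 CPM with doxorubicin and to 1242 and 1371 CPM without it, in deficient and wild-type cells in each case. In bulk RNA, fewer cells of a type and less RNA per cell cannot be told apart.

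Jund and Jun were the most abundant members and Fosb the least, on the length-corrected TPM scale (each gene's share of the transcripts). Jund, a broadly expressed JUN protein, averaged 203 TPM over the 4 libraries with a range of 145 to 265 TPM, and Jun averaged 128 TPM (105 to 156 TPM). Fos and Junb came next, with means of 75.7 and 72.4 TPM and overlapping ranges of 46.0 to 102 and 50.6 to 101 TPM. Atf3, Myc, Fosl1 and Egr1 had means of 22.7 to 26.3 TPM. Their ranges overlapped, and those of Fosl1 (2.93 to 44.8 TPM) and Egr1 (8.18 to 38.3 TPM) were the wide ones. Fosl2 averaged 10.5 TPM (7.70 to 15.4 TPM) and Fosb 0.613 TPM (0 to 1.69 TPM). Neighbours in this order overlapped in range except Jun with Fos (lowest 105, highest 102 TPM), Junb with Atf3 (lowest 50.6, highest 30.7 TPM) and Fosl2 with Fosb.

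**Figure D1:**
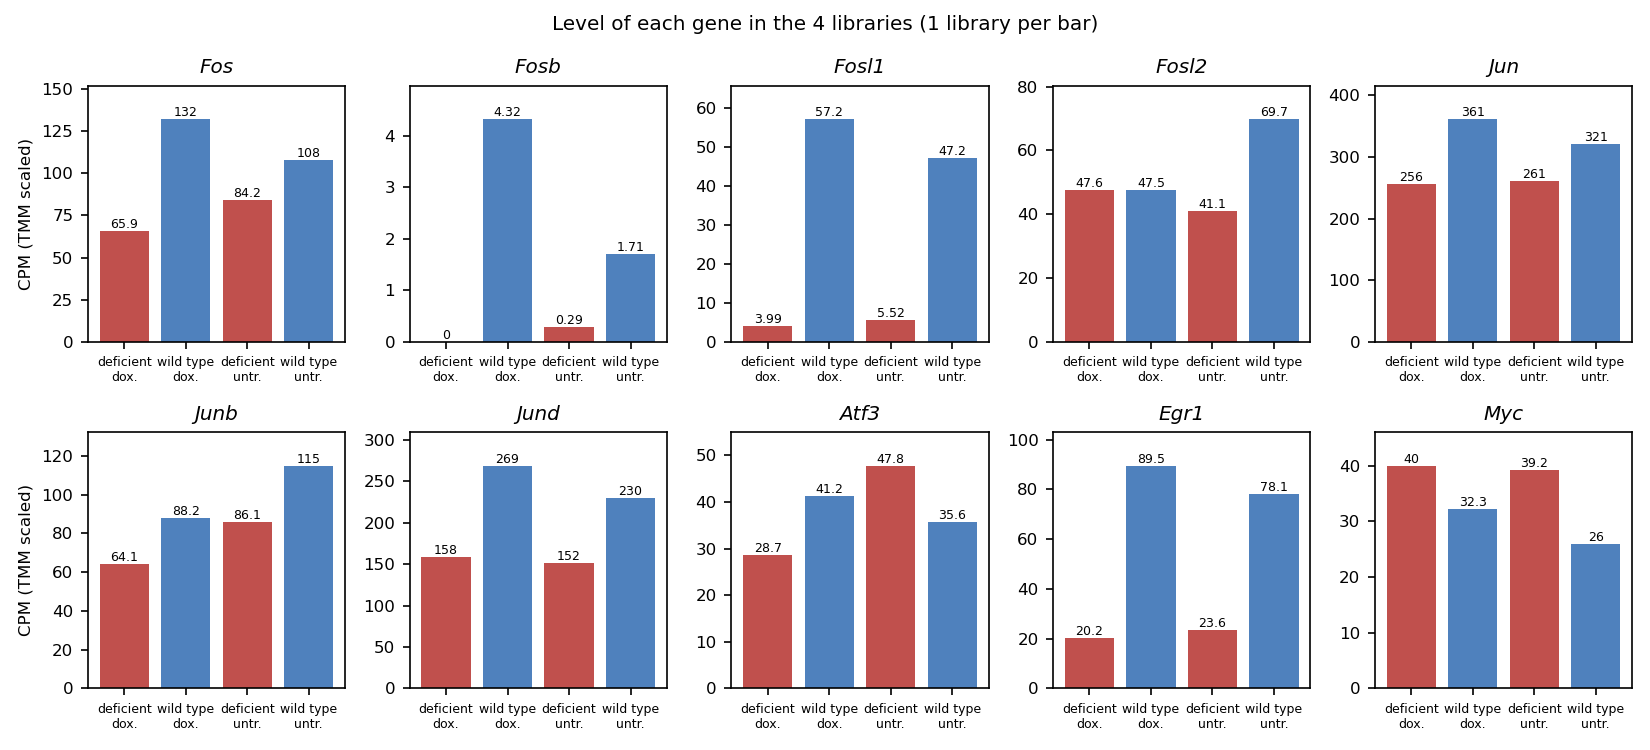
CPM after TMM scaling (vertical axis, from 0, own scale in each panel) of the 10 genes, 1 bar per library, red for OASIS deficient and blue for wild type, with the doxorubicin pair left of the untreated pair. Fosl1 and Egr1 show low bars in both deficient libraries (3.99 and 5.52 CPM for Fosl1), while Atf3 is high in 1 library of each genotype.

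The comparison of OASIS-deficient with wild-type astrocytes asks how gene expression depends on OASIS, with and without DNA damage. Of the 10 genes, 7 were lower in both deficient libraries than in both wild-type libraries (30.8% of all genes tested had this order), namely Fos, Fosb, Fosl1, Jun, Junb, Jund and Egr1, and Myc alone was higher in both (31.2% of all genes). The same 7 genes fell in deficient cells in an additive edgeR fit of genotype and treatment at a Benjamini-Hochberg adjusted p of at most 0.05, where 10.6% of all 15596 genes were called lower and 12.6% higher. No gene of the 10 was called higher, and Fosl2, Atf3 and Myc were not called. By size alone, a difference of at least 2-fold on the scale of log2(CPM + 1), 3 genes were lower with doxorubicin (9.55% of all genes) and the same 3 without it (10.2% of all genes): Fosb, Fosl1 and Egr1. Fosb, counted among the 7 and the 3, passed the minimum of 1 CPM only through its wild-type libraries.

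Among the FOS genes, 3 fell in deficient cells and 1 was not called. Fosl1 encodes FRA-1, which lacks the C-terminal activation domain of FOS and is known as a lasting output of ERK signalling. Fosl1 (ENSMUSG00000024912.6, GRCm38 chromosome 19, 5447547 to 5455946, plus strand) had 79 and 1309 counts in deficient and wild-type cells with doxorubicin, or 3.99 and 57.2 CPM. Without doxorubicin it had 95 and 940 counts in deficient and wild-type cells, or 5.52 and 47.2 CPM. Both deficient libraries were low, and the genotypes did not overlap. The deficient level was 6.99% of wild type with doxorubicin (95% exact binomial interval 5.50 to 8.77%) and 11.7% without it (9.37 to 14.5%), and such intervals cover counting error only. The log2 change over both pairs was -3.46 with an SE of 0.296 (edgeR, adjusted p = 4.33e-07, range over the alternatives 5.63e-23 to 0.000301). Exons of Fosl1 overlap those of Ccdc85b on the other strand, and the library kit does not mark strand. Ccdc85b had 2659 and 2930 counts in deficient and wild-type cells with doxorubicin, and 2487 and 2327 without it, with a log2 change of 0.19 (edgeR, adjusted p = 0.371).

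Fos encodes c-FOS, the founding FOS protein, whose mRNA rises and decays within hours of a stimulus. Fos (ENSMUSG00000021250.13, GRCm38 chromosome 12, 85473890 to 85477273, plus strand) had 65.9 and 132 CPM in deficient and wild-type cells with doxorubicin (1303 and 3023 counts), and 84.2 and 108 CPM in deficient and wild-type cells without it (1449 and 2151 counts). The genotypes did not overlap, and the pair with doxorubicin was farther apart. Deficient cells had 49.9% of the wild-type level with doxorubicin (46.7 to 53.3%) and 77.9% without it (72.9 to 83.4%). The additive log2 change of Fos was -0.68 with an SE of 0.170 (edgeR, adjusted p = 0.00822, range over the alternatives 0.000162 to 0.0327).

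Fosb encodes a FOS protein with a truncated splice form that accumulates in stimulated neurons. Fosb (ENSMUSG00000003545.3, GRCm38 chromosome 7, 19302696 to 19310051, minus strand) had 0 and 99 counts in deficient and wild-type cells with doxorubicin, and 5 and 34 counts without it. In CPM these were 0 and 4.32 with doxorubicin, and 0.290 and 1.71 without it. It was 28.5-fold lower in deficient cells with doxorubicin when its 0 counts are set at the floor of 3 for that library. The upper limit of the 95% interval was 4.39% of wild type, or 22.8-fold lower. Without doxorubicin, Fosb stood at 17.0% of wild type (5.20 to 43.7%). Its size call ended with 5 CPM added in place of 1 (log2 ratios of -0.90 with doxorubicin and -0.34 without it). The additive edgeR fit called it lower (adjusted p = 0.0476), and the call was lost under 2 of 6 alternatives (range 0.0169 to 0.118). Its mean of 1.58 CPM passed the minimum of 1 CPM only through the wild-type libraries, so its calls are not independent of that minimum.

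Fosl2 encodes FRA-2, a FOS protein best known from bone and fibrosis. Fosl2 (ENSMUSG00000029135.10, GRCm38 chromosome 5, 32135801 to 32157842, plus strand) had 47.6 and 47.5 CPM in deficient and wild-type cells with doxorubicin (942 and 1088 counts), against 41.1 and 69.7 CPM in deficient and wild-type cells without it (708 and 1389 counts). Only the untreated wild-type library was high. The deficient level was 100.2% of wild type with doxorubicin (91.8 to 109%) and 59.0% without it (53.8 to 64.6%), and the additive edgeR change of -0.38 (SE 0.217) did not pass the test (adjusted p = 0.240, range over the alternatives 0.158 to 0.417).

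The FOS family as a whole was smaller in deficient cells and held less Fosl1. The 4 FOS genes summed to 57.9 and 159 TPM in deficient and wild-type cells with doxorubicin, and to 72.8 and 149 TPM without it. Fosl1 made up 5.06% of that sum in deficient and 28.2% in wild-type cells with doxorubicin, and 6.96% in deficient and 25.7% in wild-type cells without it. Fos made up 79.5 and 64.4% in deficient and wild-type cells with doxorubicin, and 82.3 and 63.5% without it.

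**Figure D2:**
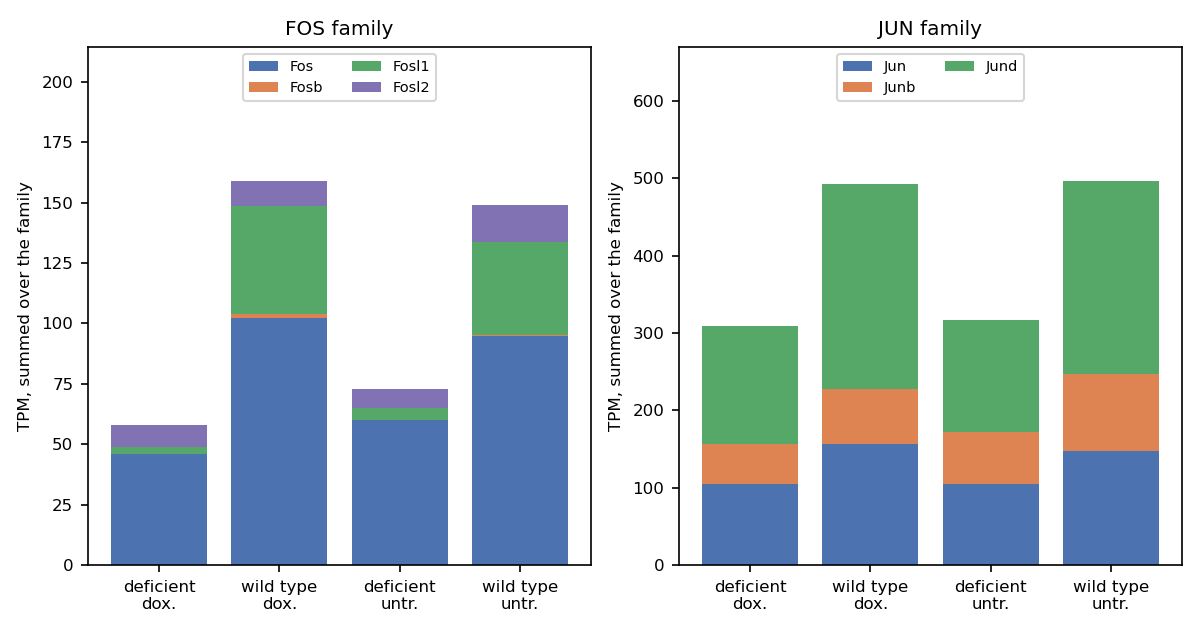
Deposited TPM (vertical axis, from 0) summed over the FOS genes (left) and the JUN genes (right), 1 stacked bar per library, with deficient left of wild type in each treatment and the doxorubicin pair left of the untreated pair. The Fosl1 segment nearly vanishes in both deficient libraries (5.06 and 6.96% of the FOS sum), while the JUN bars are shorter with a similar division.

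The starts of 3 FOS genes are shown because they stand side by side in one family and differ in their calls: Fos and Fosb were called lower and Fosl2 was not. Each is the stretch of 250 bases before to 50 bases after the RefSeq transcription start, on the gene's strand, in build GRCm38.p6. Capitals mark matches, on either strand, to TGACG (the core of the CREB/ATF element), GCGNGGGCG (the EGR element) or TATAAA (the TATA box). The stretches are chr12:85473640-85473939 (plus strand) for Fos, chr7:19309996-19310295 (minus strand) for Fosb and chr5:32136222-32136521 (plus strand) for Fosl2.
Fos: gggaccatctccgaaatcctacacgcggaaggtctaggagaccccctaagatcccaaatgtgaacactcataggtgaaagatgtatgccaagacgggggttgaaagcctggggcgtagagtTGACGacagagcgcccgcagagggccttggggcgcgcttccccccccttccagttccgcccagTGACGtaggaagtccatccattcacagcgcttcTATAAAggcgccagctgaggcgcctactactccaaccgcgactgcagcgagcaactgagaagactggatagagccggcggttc
Fosb: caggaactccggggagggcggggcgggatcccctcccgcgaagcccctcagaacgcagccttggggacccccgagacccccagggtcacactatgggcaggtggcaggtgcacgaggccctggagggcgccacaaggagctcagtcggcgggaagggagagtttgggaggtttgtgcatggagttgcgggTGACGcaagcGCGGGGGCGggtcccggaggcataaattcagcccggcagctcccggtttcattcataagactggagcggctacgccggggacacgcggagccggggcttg
Fosl2: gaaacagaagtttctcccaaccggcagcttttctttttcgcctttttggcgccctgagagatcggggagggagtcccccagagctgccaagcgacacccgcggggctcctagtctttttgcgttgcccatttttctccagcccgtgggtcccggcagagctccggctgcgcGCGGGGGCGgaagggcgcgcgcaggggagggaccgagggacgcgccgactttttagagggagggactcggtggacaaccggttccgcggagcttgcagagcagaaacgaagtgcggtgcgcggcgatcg

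In the Fos stretch, TGACG matched at 129 and 66 bases before the start and TATAAA at 33 bases before it. The Fosb stretch held TGACG at 60 and the EGR element at 50 bases before the start, and the Fosl2 stretch held the EGR element at 79 bases before it and no TGACG. RefSeq stretches were found for 7 of the 10 genes, with none for Fosl1, Egr1 and Myc. Not every stretch sits at the outer end of the GENCODE gene. The Jund stretch ends at 70697788, before the gene start at 70698949. The stretches of Fosl2 (from 32136222, gene from 32135801) and Atf3 (to 191183583, gene to 191218039 on the minus strand) lie inside the gene. TGACG occurred in 4 of the 7 (Fos, Fosb, Junb and Atf3) and in 20.8% of all 32851 promoters of that length. The stretches of Jun, Jund and Fosl2 held no TGACG, and the one used for Jund does not reach its GENCODE gene. Whether matches go with the genotype calls was not tested. The EGR element occurred in 2 of the 7 and in 5.55% of all promoters. TATAAA occurred in 2 of the 7 (Fos and Junb) and in 13.6% of all promoters. In Junb it lay at positions 1 to 6 counted from the RefSeq start, and not before that start. The AP-1 element TGANTCA, the full CREB element TGACGTCA and the CArG box of serum response factor matched 0 of the 7, and 7.81, 1.79 and 1.63% of all promoters. Only exact matches were counted, so near matches, such as TGACATCA in the Jun stretch, are left out. The stretches reach only 250 bases before the start, so elements farther out were not searched. The full CREB element contains TGACG, so those 2 motifs overlap. A match is a description of letters and not of a bound site.

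All 3 JUN genes fell in deficient cells, by less than 2-fold each. Jund, which dampens growth in several cell types, had 158 and 269 CPM in deficient and wild-type cells with doxorubicin (3127 and 6152 counts), and 152 and 230 CPM without it (2610 and 4589 counts). The genotypes did not overlap. Its deficient level was 58.8% of wild type with doxorubicin (56.3 to 61.4%) and 65.8% without it (62.7 to 69.1%), and the additive change was -0.68 with an SE of 0.122 (edgeR, adjusted p = 0.000681, range over the alternatives 1.55e-06 to 0.0073). Jund (ENSMUSG00000071076.6) lies on GRCm38 chromosome 8 from 70698949 to 70700616, plus strand, and its antisense partner Gm11175 had 29 and 148 counts in deficient and wild-type cells with doxorubicin and 73 and 75 without it.

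Jun encodes c-JUN, the AP-1 subunit activated by JNK and able to form a dimer with itself. Jun (ENSMUSG00000052684.4, GRCm38 chromosome 4, 95049034 to 95052222, minus strand) had 256 and 361 CPM in deficient and wild-type cells with doxorubicin (5063 and 8263 counts), and 261 and 321 CPM without it (4496 and 6389 counts). Both deficient libraries were alike and below both wild-type ones. The deficient level was 70.9% of wild type with doxorubicin (68.5 to 73.5%) and 81.4% without it (78.4 to 84.6%), and the additive change was -0.40 with an SE of 0.113 (edgeR, adjusted p = 0.0183, range over the alternatives 0.00227 to 0.0463). The antisense gene Junos had 3 and 19 counts in deficient and wild-type cells with doxorubicin and 6 and 22 without it.

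Junb encodes a JUN protein that can oppose c-JUN. Junb (ENSMUSG00000052837.7, GRCm38 chromosome 8, 84974484 to 84978718, minus strand) had 64.1 and 88.2 CPM in deficient and wild-type cells with doxorubicin (1267 and 2019 counts), and 86.1 and 115 CPM without it (1482 and 2289 counts). The untreated deficient and the treated wild-type library were nearly level, so the genotypes were separated by a narrow margin. Deficient cells had 72.6% of the wild-type level with doxorubicin (67.66 to 77.97%) and 74.9% without it (70.1 to 80.0%). The additive edgeR fit called it lower, with a log2 change of -0.44, an SE of 0.152 and an adjusted p of 0.0489, and the call was lost under 3 of 7 alternatives (range 0.0228 to 0.171). Exons of Junb overlap those of Prdx2 on the other strand, which had 11751 and 12156 counts in deficient and wild-type cells with doxorubicin and 10771 and 10432 without it.

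The JUN genes summed to 310 and 493 TPM in deficient and wild-type cells with doxorubicin, and to 316 and 496 TPM without it. Jund made up 49.6 and 53.7% of that sum in deficient and wild-type cells with doxorubicin, and 45.7 and 50.1% without it. Jun made up 34.0 and 31.7% with doxorubicin, and 33.2 and 29.6% without it, in deficient and wild-type cells in each case.

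Egr1, a zinc finger factor induced alongside Fos by ERK and serum response factor, was low in deficient cells under both conditions. Egr1 (ENSMUSG00000038418.7, GRCm38 chromosome 18, 34859823 to 34864984, plus strand) had 20.2 and 89.5 CPM in deficient and wild-type cells with doxorubicin (400 and 2049 counts), and 23.6 and 78.1 CPM without it (407 and 1556 counts). Both deficient libraries were low and nearly level, and the genotypes were far apart. Deficient cells had 22.6% of the wild-type level with doxorubicin (20.3 to 25.2%) and 30.3% without it (27.1 to 33.8%). The additive log2 change was -1.93 with an SE of 0.205 (edgeR, adjusted p = 4.81e-06, range over the alternatives 7.82e-16 to 0.000622).

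Atf3, a stress-induced factor of the ATF family that dimerises with JUN and often represses, stood in opposite order under the treatments. Atf3 (ENSMUSG00000026628.13, GRCm38 chromosome 1, 191170296 to 191218039, minus strand) had 28.7 and 41.2 CPM in deficient and wild-type cells with doxorubicin (567 and 943 counts), and 47.8 and 35.6 CPM without it (822 and 709 counts). The untreated deficient library was the high one and the treated deficient library the low one, so the genotypes overlapped. Deficient cells had 69.6% of the wild-type level with doxorubicin (62.6 to 77.3%) and 134% without it (121 to 149%), and the additive edgeR change was -0.05 with an SE of 0.252 (adjusted p = 0.920, range over the alternatives 0.904 to 0.987).

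Myc encodes the factor that, with MAX, drives growth and ribosome genes. Myc (ENSMUSG00000022346.16, GRCm38 chromosome 15, 61985391 to 61990374, plus strand) had 40.0 and 32.3 CPM in deficient and wild-type cells with doxorubicin (791 and 739 counts), and 39.2 and 26.0 CPM without it (675 and 517 counts). Both deficient libraries lay above both wild-type ones. The deficient level was 124% of wild type with doxorubicin (112 to 137%) and 151% without it (135 to 170%), but the additive edgeR change of 0.45 (SE 0.231) did not pass the test (adjusted p = 0.183, range over the alternatives 0.153 to 0.338).

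**Figure D3:**
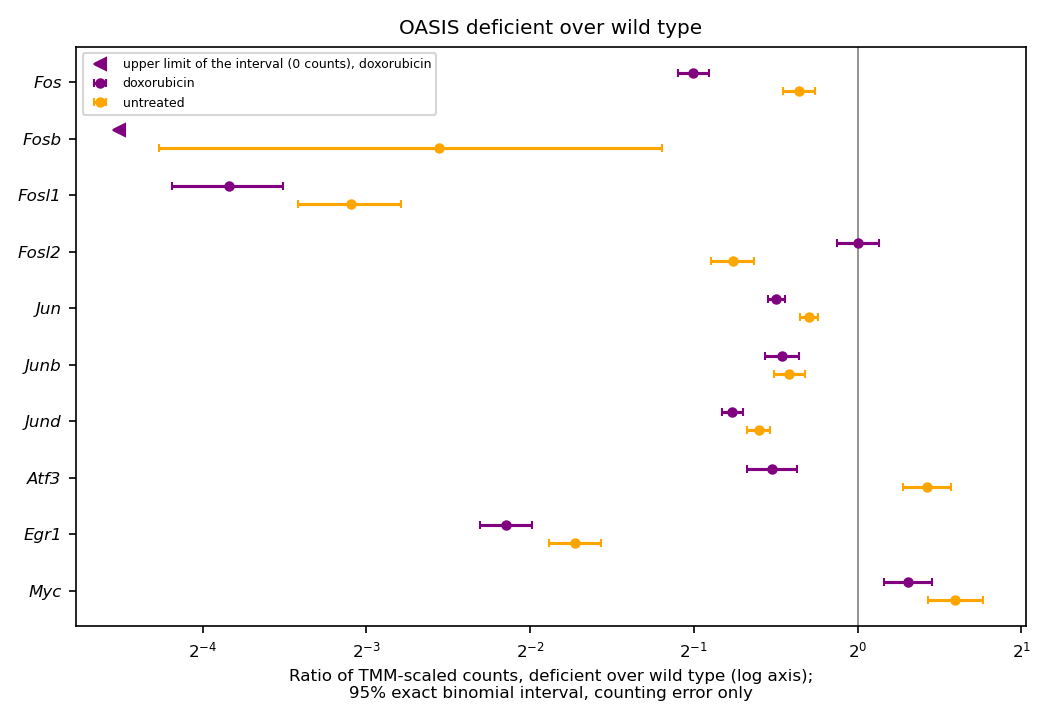
Ratio of TMM-scaled counts, OASIS deficient over wild type (horizontal axis, log scale, 1 marked by a grey line), for each gene with doxorubicin (purple, upper) and without it (orange, lower), with 95% exact binomial intervals for counting error. The arrow marks the upper limit for Fosb, which had 0 counts in the treated deficient library. Fosl1, Fosb and Egr1 lie far to the left, and Atf3 lies on both sides of 1.

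Markers of some cell types differed by genotype and those of others did not. The additive edgeR fit called 12.6% of all genes higher and 10.6% lower in deficient cells. Among the astrocyte markers, 8 of 10 were called higher, as were 10 of 11 oligodendrocyte-lineage markers and 6 of 7 tested neuronal markers. Of 12 microglial markers, 1 was called higher and 2 lower. Of 7 tested fibroblast and meningeal markers, 0 were called. Of 3 tested endothelial and pericyte markers, 1 was called lower, and of 6 ependymal markers, 1 was called higher and 1 lower. Oligodendrocyte-lineage markers summed to 1083 and 348 CPM in deficient and wild-type cells with doxorubicin and to 1083 and 474 CPM without it, and Sox10, Mog and Mobp were at 0 in the treated and Mog in the untreated wild-type library. Neuronal markers summed to 452 and 203 CPM in deficient and wild-type cells with doxorubicin and to 420 and 228 CPM without it, with Snap25 and Dcx at 0 in both wild-type libraries only and Slc17a6 at 0 in all 4 libraries. Fibroblast and meningeal markers summed to 291 and 211 CPM in deficient and wild-type cells with doxorubicin and to 328 and 378 CPM without it, and endothelial and pericyte markers to 6.02 and 15.1 CPM with it and to 8.54 and 18.4 CPM without it. Their part in the differences of the AP-1 and immediate early genes was not tested.

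DNA damage activates stress kinases that can induce Jun, Atf3 and Egr1, and the comparison of doxorubicin with no treatment asks how these genes stood 24 h after exposure. Of the 10 genes, 0 differed by 2-fold on the log2(CPM + 1) scale between treated and untreated cells of either genotype, where 3.51% of all genes in deficient and 9.53% in wild-type cells differed in either direction. The additive edgeR fit called 0 of the 10 for treatment, where 0.16% of all genes (25 of 15596) were called, and DESeq2 and limma-voom also called 0. At an unadjusted p under 0.05 there was 1 of 10, beside 5.54% of all genes (864 of 15596). This gene was Junb, with 64.1 and 88.2 CPM in treated deficient and wild-type cells, against 86.1 and 115 CPM in untreated deficient and wild-type cells. Its log2 change was -0.40 with an SE of 0.152 (edgeR, adjusted p = 0.774, range over the alternatives 0.397 to 1.00), and both genotypes had lower values with doxorubicin.

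Ratios of treated to untreated CPM, without the added 1 CPM, passed 2-fold for Fosb in wild-type cells and often pointed opposite ways in the genotypes. In wild-type cells the treated level was 253% of untreated for Fosb (170 to 386%), 122% for Fos (116 to 129%), 121% for Fosl1 (111 to 132%) and 115% for Egr1 (107 to 122%). In deficient cells it was 78.3% for Fos (72.6 to 84.4%), 72.4% for Fosl1 (53.0 to 98.6%) and 85.5% for Egr1 (74.3 to 98.4%), and Fosb had 0 counts treated and 5 untreated. Atf3 stood at 60.0% of untreated in deficient cells (53.8 to 66.9%) and at 116% in wild-type cells (105 to 128%). Fosl2 went the other way, at 116% in deficient (105 to 128%) and 68.1% in wild-type cells (62.9 to 73.8%).

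Among the remaining genes, Jun stood at 98.0% of untreated in deficient and 113% in wild-type cells, Jund at 104 and 117%, and Myc at 102 and 124%. The difference of the responses, deficient minus wild type on the log2(CPM + 1) scale, was -1.34 for Fosb, -0.92 for Atf3, -0.66 for Fosl1, -0.64 for Fos and 0.75 for Fosl2, and lay between -0.41 and -0.04 for the other 5 genes. With 1 library per group this difference has no test.

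**Figure D4:**
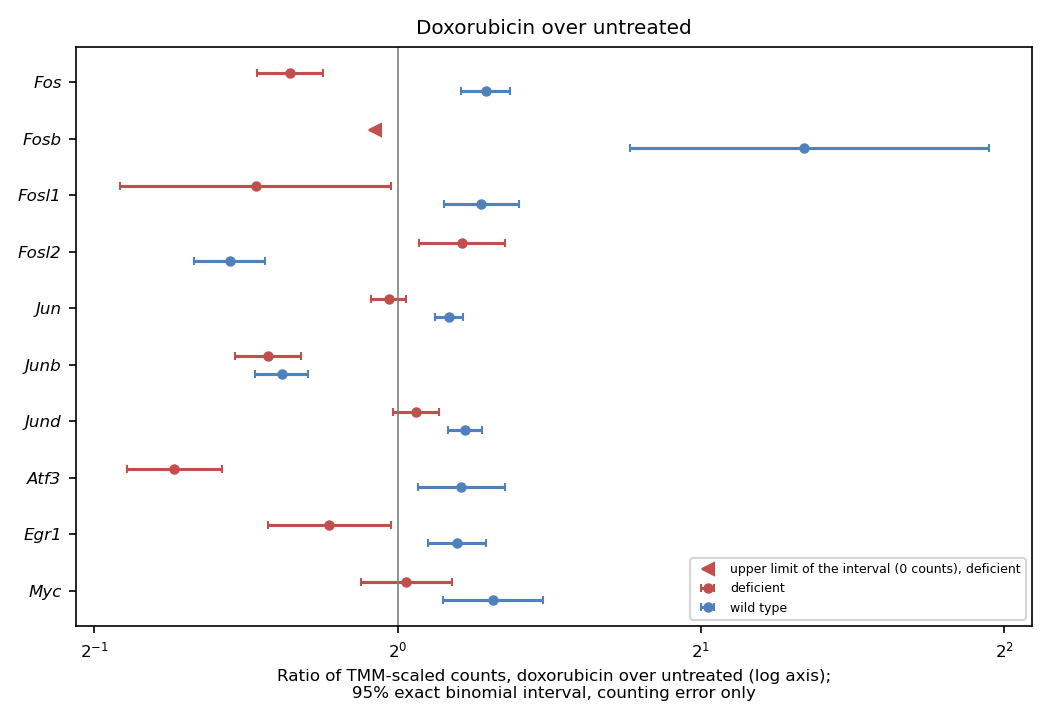
Ratio of TMM-scaled counts, doxorubicin over untreated (horizontal axis, log scale, 1 marked by a grey line), for each gene in deficient (red, upper) and wild-type cells (blue, lower), with 95% exact binomial intervals for counting error. The arrow marks the upper limit for Fosb with 0 counts. Fos, Fosl1, Atf3 and Egr1 lie left of 1 in deficient and right of 1 in wild-type cells, and Fosl2 the reverse.

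Other genes of the same pathways were read from 10 lists holding 137 genes, of which 130 passed the minimum of 1 CPM. The additive edgeR fit called 40 of them by genotype, 8 higher and 32 lower in deficient cells, beside 12.6 and 10.6% of all genes. For treatment it called 0 of the 130, with 9 at an unadjusted p under 0.05 (5.54% of all genes), while DESeq2 and limma-voom each called 1, the AP-1 target Spp1. Spp1 had an adjusted p of 0.0576 in the main edgeR fit and was called under 4 of 7 alternatives (adjusted p 2.00e-06 to 1.00). Of the 40 genotype calls, 34 held under every alternative, and Cd44, Mapk9, Mapk10, Ptgs2, Spp1 and Thbs1 lost theirs under at least 1.

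Among 30 tested immediate early genes outside the members, 7 fell and 3 rose in deficient cells, beside 10.6 and 12.6% of all genes. The median additive log2 change was -0.44, against -0.01 over all genes. Klf4, a zinc finger factor of growth arrest, had 2.53 and 37.2 CPM in deficient and wild-type cells with doxorubicin, and 5.81 and 24.5 CPM without it, a log2 change of -2.95 (edgeR, adjusted p = 0.000114). Btg2, an antiproliferative gene and p53 target, had 29.7 and 148 CPM with doxorubicin and 31.1 and 142 CPM without it, in deficient and wild-type cells in each case. Its log2 change was -2.25 (edgeR, adjusted p = 5.89e-08). Ptgs2, the inducible prostaglandin synthase, Arc, a synaptic plasticity gene, Klf10, Ier5 and Trib1 also fell, with log2 changes of -2.10, -1.61, -0.94, -0.92 and -0.82. The 3 that rose were Rhob, a small GTPase (1.10), and the matricellular genes Ccn2 (1.07) and Ccn1 (0.64). Egr2, which met the rule of size without treatment (log2 ratio -1.62), was not called (additive edgeR adjusted p = 0.0723), nor was the neuronal factor Npas4 (2.98, adjusted p = 0.070).

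Of 12 feedback and output genes of ERK signalling, 5 fell in deficient cells (10.6% of all genes) and 0 rose (12.6% of all genes). Their median log2 change was -0.55. Dusp4, a nuclear MAP kinase phosphatase, had 2.53 and 13.5 CPM in deficient and wild-type cells with doxorubicin, and 4.65 and 14.7 CPM without it, a log2 change of -2.03 (edgeR, adjusted p = 0.00496). The ETS factor Etv4 (-1.74), Phlda1 (-1.56), the receptor signalling inhibitor Spry4 (-1.12) and the ERK phosphatase Dusp6 (-0.93) fell as well. Dusp5, Spry1, Spry2, Spred1, Spred2, Etv1 and Etv5 were not called, with log2 changes between -0.61 and 0.82.

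Over all genes, 10.6% were called lower and 12.6% higher by genotype, and the calls in lists upstream of the members were these. Among 12 MAP kinases and their activators and effectors, Mapk9 (JNK2) fell (-0.64) and Mapk10 (JNK3) rose (0.60), and the median was 0.06. Of 8 SRF, TCF and CREB factors that act on immediate early promoters, the coactivator Mrtfb fell (-1.07), while Srf (-0.06), Elk1 (-0.19) and Creb1 (-0.21) were not called. Of 7 genes that turn over JUN and MYC proteins, Fbxw7, the ubiquitin ligase subunit that marks both for decay, had 30.2 and 72.4 CPM in deficient and wild-type cells with doxorubicin, and 23.1 and 50.9 CPM without it. Fbxw7 fell by 1.20 on the log2 scale (edgeR, adjusted p = 0.000582), and Itch, another ligase, met the rule of size without treatment (-1.33) but was not called. Among 7 tested bZIP partners, the small MAF proteins Mafg (-1.18) and Mafk (-0.78) fell, and Atf2, Atf7, Jdp2, Maff and Batf3 were not called.

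Downstream, 6 of 13 tested AP-1 targets fell in deficient cells (10.6% of all genes) and 0 rose (12.6% of all genes). Their median log2 change was -0.88. Hbegf, a growth factor of the EGF family, had 316 and 640 CPM in deficient and wild-type cells with doxorubicin, and 372 and 620 CPM without it (log2 change -0.88, edgeR adjusted p = 2.10e-05). Ccnd1, the cyclin that starts the cell cycle, had 303 and 542 CPM with doxorubicin and 251 and 475 CPM without it, in deficient and wild-type cells in each case (-0.88, edgeR adjusted p = 1.71e-05). Areg, another EGF family ligand, was near 0 in deficient cells, at 0.0506 and 2.14 CPM in deficient and wild-type cells with doxorubicin and at 0.0581 and 2.76 CPM without it, and it fell (edgeR, adjusted p = 0.0135). Plaur (-0.98), the matrix receptor Cd44 (-0.36) and Spp1 (-0.25) also fell. The proteases Mmp3 and Mmp9 met the rule of size with doxorubicin (-1.34 and -1.80) but were not called. Areg, Mmp3 and Mmp9 passed the minimum of 1 CPM only through their wild-type libraries.

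Of 10 EGR1 targets, 3 fell and 1 rose, where 10.6% of all genes were called lower and 12.6% higher. Pdgfa, a platelet-derived growth factor, had 68.4 and 227 CPM in deficient and wild-type cells with doxorubicin, and 60.9 and 158 CPM without it, a log2 change of -1.55 (edgeR, adjusted p = 1.31e-06). Thbs1 (-0.35) was also among those that fell, F3 (tissue factor) rose (0.79), and the EGR1 corepressors Nab1 (-0.10) and Nab2 (0.25) were not called. Fgf2 was at 9.08 CPM in treated wild-type cells and at 21.0 to 25.1 CPM in the other 3 libraries, which put it past 2-fold in both comparisons that use the treated wild-type library (1.37 and -1.37), and it was not called.

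Around Myc, 1 gene of 11 rose, 1 fell and the others were not called, where 12.6% of all genes were called higher and 10.6% lower. Mxd3, a MAX partner that opposes MYC and is linked to dividing cells, had 28.1 and 0.306 CPM in deficient and wild-type cells with doxorubicin, and 19.6 and 0.753 CPM without it, a log2 change of 5.51 (edgeR, adjusted p = 2.00e-06). Mxd3 passed the minimum of 1 CPM only through its deficient libraries. Mga, another MAX partner, fell (-0.94). Among 20 MYC targets of growth, 5 fell and 2 rose, with a median log2 change of 0.04. The counts around Myc, and that of the targets that rose, were near the shares over all genes. The pyrimidine synthesis gene Cad (-1.29), the transferrin receptor Tfrc (-1.09), Pa2g4 (-0.84), the cyclin Ccnd2 (-0.49) and the polyamine enzyme Odc1 (-0.44) fell, while Cdk4 (0.59) and Ldha (0.47) rose.

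**Figure D5:**
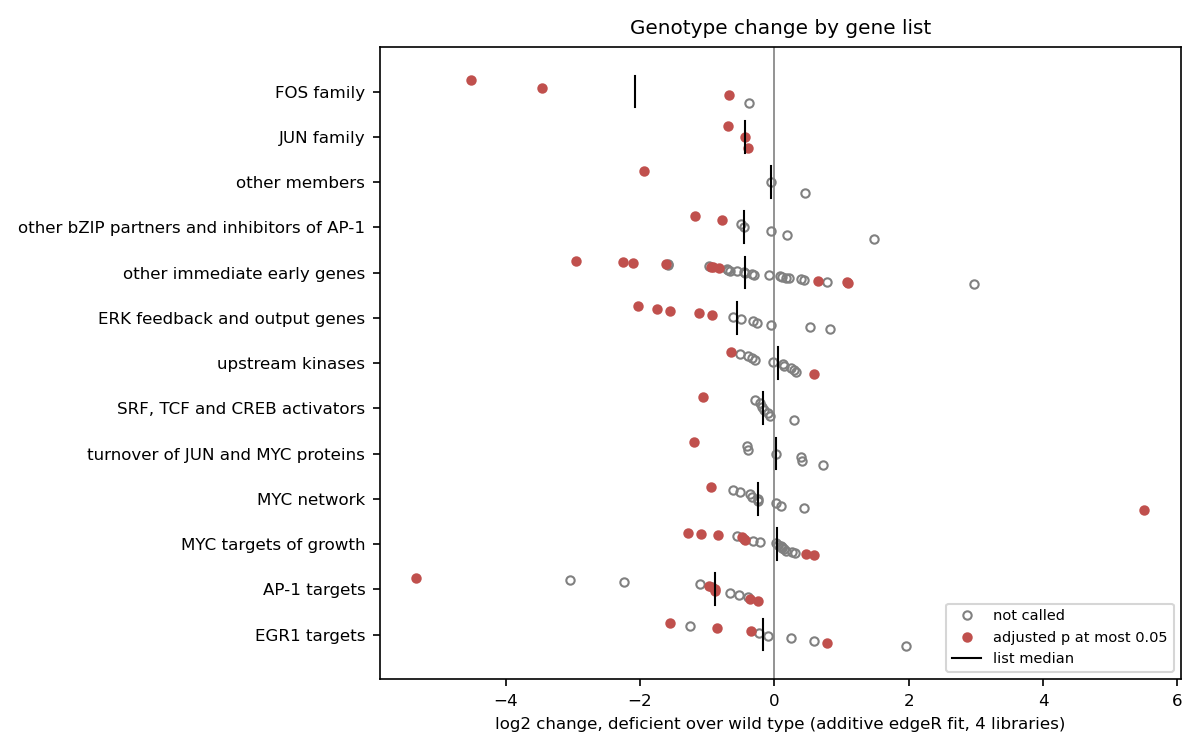
Additive log2 change, OASIS deficient over wild type (horizontal axis), of each tested gene by list, filled where the Benjamini-Hochberg adjusted p was at most 0.05 (edgeR), with a black line at each list's median. The AP-1 target and ERK feedback medians lie at -0.88 and -0.55, the upstream kinase median at 0.06, and Mxd3 stands alone at 5.51.

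Genes whose levels were most like each member over the 4 libraries were found by the distance between log2(CPM + 1) values centred on their mean, among 11223 genes of at least 5 CPM. Near Fos lay Nmb and Dusp10, the MAP kinase phosphatase, at distances of 0.03 to 0.04 on the log2 scale. Nearest to Fosl1 were Cox6b2, Slc27a3 and Slc19a2 (0.18 to 0.31), and Cox6b2 had 8.14 and 119 CPM in deficient and wild-type cells with doxorubicin and 12.4 and 104 CPM without it. Nearest to Egr1 were Gsta4, Efs and Hprt (0.09 to 0.13). For Jun they were Saraf, Sdf4 and Pgam5, for Junb Natd1, Tmem104 and Ctss, and for Jund Ikbkg, Trafd1 and Mindy3. Near Fosl2 lay Setdb1 and Uck1. The nearest were for Atf3 Srd5a3, Dusp19 and Senp8, and for Myc Cox6b1, Dynll1 and Bola2. With 4 points per gene, genes can lie close to a pattern by chance. How many do was not counted, and the likeness is a description only.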

How the data were processed

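RNA of 4 cultures was sequenced, per the labels' protocols, after library preparation with SMART-Seq v4, a kit without strand information. The authors deposited an estimated count and a TPM value for each gene and library, per the file headers. Per the submitters' processing notes, DRAGEN and GRCm38 were used; versions and read filters are not stated there. The deposited estimated counts are not normalized, hold fractions in 5810 to 6451 genes per library (Fosl1, Jun and Jund among them) and were rounded to whole numbers. The deposited TPM values were used for levels between genes and as an alternative scale. Symbols and coordinates came from GENCODE for GRCm38, by identifier without version (55227 of 55487 matched), and promoter stretches from RefSeq (GRCm38.p6).

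Groups followed the genotype and treatment labels, and the numbers in the titles follow treatment and mark no replicates. Counts were scaled to CPM by TMM, 1 CPM was added before log2 ratios, which understates changes of low genes, and genes needed a mean of 1 CPM. Single libraries were compared by ratio, with 95% exact conditional binomial intervals and no p-value. Since reads carried no molecular identifiers, intervals and floors reflect counting error only. An additive model of genotype and treatment was fitted to all genes with edgeR's quasi-likelihood test (common dispersion 0.0863, 14.3 prior and 1 residual degree of freedom), with Benjamini-Hochberg adjusted p of at most 0.05 called. That residual degree mixes noise with any genotype-dependent response. Each SE printed with an edgeR change was worked back from that change and its test statistic, and is no separate measure of spread. The code was tested on simulated data. Genes were named by rule: the 10 members, Creb3l1, from each list every gene called in an additive test and up to 3 genes per comparison with the largest ratio past 2-fold, and the 3 nearest genes to each member with a mean of at least 5 CPM; other list genes are named only to give values that were not called. Some genes chosen by this rule are not reported here. The members and lists were chosen with earlier results of these data known. Alternatives were DESeq2, limma-voom, DESeq2 size factors, total counts, TPM, pseudocounts of 0.5 and 5 CPM, a minimum of 5 CPM, no minimum, omission of the other factor and omission of genes on X and Y. Software was R 4.3.3, edgeR 4.0.16, DESeq2 1.42.0, limma 3.58.1, Python 3.11.15, scipy 1.17.1 and pandas 2.3.3.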

Additional observations from a re-analysis of the deposited data

Results flagged for a closer look

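For 6 genes the ratio of treated to untreated cells pointed one way in deficient and the other way in wild-type cells, and each counting interval left out no change. On the scale of log2(CPM + 1), in deficient and wild-type cells, the ratios were -0.35 and 0.29 for Fos, -0.37 and 0.98 for Fosb, -0.38 and 0.27 for Fosl1, -0.72 and 0.21 for Atf3, -0.22 and 0.19 for Egr1, and 0.21 and -0.54 for Fosl2. For Atf3 the ratio of deficient to wild-type cells was -0.51 with doxorubicin and 0.41 without it. With 1 library per group, none of these differences was tested. The intervals cover counting error and not the spread between cultures, and the sex of the cultures follows the treatment label.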

How the results depend on the processing

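No paired analysis was possible because each group holds 1 library and no replicate numbers match samples. The treatment term of the additive fit does set deficient against wild-type cells within each treatment, and without it 5 of the 10 genes were called. Leaving out a library would leave the additive fit no residual degree of freedom. No value of the 10 genes changed sign under an alternative where it had been called. The additive genotype fit called 7 of the 10 genes, and 5 to 7 under the alternatives. The lost calls were Fosb with no minimum (adjusted p = 0.118) and without the treatment term (0.066), Junb with DESeq2 (0.113), with no minimum (0.0966) and without the treatment term (0.171). No gene of the 10 was called for treatment under any of the 7 alternatives, while calls over all genes ranged widely (25 with edgeR, 31 with DESeq2, 84 with limma-voom, 78 with DESeq2 size factors, 99 with a minimum of 5 CPM, 12 with no minimum, 13 without genes on X and Y, and 0 without the genotype term). With a pseudocount of 0.5 CPM, 1 gene (Fosb) passed 2-fold after doxorubicin in wild-type cells, against 0. Fosb no longer counted by size, which left 2 genes in place of 3, with a pseudocount of 5 CPM or a minimum of 5 CPM in both genotype comparisons, and on TPM in untreated cells. With a pseudocount of 5 CPM, 30 ratios of list genes passed 2-fold over the 4 comparisons, against 60. Fos, at 49.9% with doxorubicin, passed 2-fold under DESeq2 size factors and total counts, which made 4 such genes in place of 3, and on TPM, where Fosb was under the minimum. TPM moved the median log2 ratio of all genes to -0.20 between deficient and wild-type untreated cells, with 1221 genes higher and 2095 lower against 1527 and 1588 on TMM-scaled counts. The 7 genes called lower lay below that shift, at -2.70 (Fosl1) to -0.48 (Jun). Fosl2 in treated cells, at 0.00 on counts, was at -0.16 on TPM. The cause of each change was not tested, and depth limits Fosb most, with 0 and 5 counts in deficient cells.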
